A study of Homo sapiens with 10 samples.

Results

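The genes described here encode the nuclear subunits of oxidative phosphorylation, the respiratory chain and ATP synthase of the inner mitochondrial membrane. A list of 55 genes was matched, by current symbol or older alias, to the probe sets annotated to each, and where a gene had several, the brightest on average was used. Of these 55 genes, 52 had a probe set annotated to that gene alone, out of 18417 such genes in the table, and 51 passed the filter on low values, out of 12892 genes tested. The study measured total RNA of 2 human breast cancer lines on 10 Affymetrix whole-transcript arrays, 48 h after transient transfection with a double-stranded RNA against Che-1 (siChe-1) or with a control duplex (siControl). There were 2 samples of SKBR3 for each duplex, and 3 of MDA-468. All groups were transfected, and the labels describe both lines as expressing mutant p53. Che-1 is the protein of the gene AATF, known as a partner of RNA polymerase II. The question put by the design is what depletion of Che-1 does to gene expression in each line. With a single duplex against AATF, loss of AATF and other actions of that duplex cannot be told apart. The labels do not say whether the replicates of a group were grown apart, so the p-values cover the spread among these arrays, which may be technical.

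Complexes I to IV pass electrons from NADH and succinate to oxygen, and complexes I, III and IV pump protons as they do so. Complex V, the ATP synthase, lets the protons flow back and makes ATP. Complexes I, III, IV and V are built from subunits of both genomes, the mitochondrial DNA and the nucleus, while all subunits of complex II are nuclear. Transcription of the nuclear subunit genes is known to use a few shared factors, among them NRF1, GABPA (also called NRF2 alpha, of the ETS family) and YY1.

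RefSeq promoter windows (build GRCh38.p14, from 250 bases before a transcript start to 50 after it) were found for 45 of the 55 genes, in 53 windows. They were searched on both strands for the letters GCGCANGCG (NRF1), CCGGAAGT (GABPA and other ETS factors) and AAGATGGCG (YY1), and a stretch that matched several motifs counted for each. Shown here are the promoters of the 2 genes whose transcripts fell most in MDA-468, COX8A and NDUFB6, and of the gene with the smallest change there, SDHA, with capitals for the matches. The COX8A window, chr11:63974370-63974669 on the plus strand, held 1 GABPA match, on the reverse strand.
COX8A: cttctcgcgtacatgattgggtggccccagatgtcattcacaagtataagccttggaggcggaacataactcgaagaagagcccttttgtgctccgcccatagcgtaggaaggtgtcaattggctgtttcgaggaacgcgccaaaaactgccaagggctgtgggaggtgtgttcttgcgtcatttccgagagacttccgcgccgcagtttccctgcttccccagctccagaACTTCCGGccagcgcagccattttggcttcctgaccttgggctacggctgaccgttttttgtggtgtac
The NDUFB6 window, chr9:32573110-32573409 on the minus strand, held 0 matches to the 3 motifs.
NDUFB6: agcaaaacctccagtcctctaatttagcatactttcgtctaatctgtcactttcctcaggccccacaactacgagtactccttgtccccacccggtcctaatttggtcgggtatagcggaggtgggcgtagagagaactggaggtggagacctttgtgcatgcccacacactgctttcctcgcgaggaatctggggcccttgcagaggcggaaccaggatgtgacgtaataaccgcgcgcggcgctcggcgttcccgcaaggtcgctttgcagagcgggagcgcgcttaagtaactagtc
The SDHA window, chr5:218070-218369 on the plus strand, held 4 NRF1 matches and no other.
SDHA: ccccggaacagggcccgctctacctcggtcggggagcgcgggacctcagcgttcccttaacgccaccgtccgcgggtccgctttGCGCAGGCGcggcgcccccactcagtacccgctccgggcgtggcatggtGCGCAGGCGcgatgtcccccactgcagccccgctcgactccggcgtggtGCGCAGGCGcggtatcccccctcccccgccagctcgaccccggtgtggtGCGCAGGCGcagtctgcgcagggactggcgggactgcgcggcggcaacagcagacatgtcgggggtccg
NRF1 letters stood in the windows of 12 of the 45 genes, GABPA letters in those of 8 and YY1 letters in those of 7. Counted by window, that was 22.6%, 15.1% and 13.2% of the 53, against 7.52%, 4.14% and 1.75% of the 35116 windows in the table and 12%, 7.02% and 3.24% of the 14677 windows of genes tested. Any of the 3 motifs stood in 43.4% of the subunit windows and in 20.2% of those of genes tested. The 51 windows of tested subunit genes held NRF1, GABPA and YY1 letters in 21.6%, 15.7% and 11.8%, and any of the 3 in 41.2%. Among the subunit genes with a window, the changes of those with and without a match were set side by side. In MDA-468 the median log2 fold change was -0.42 for the 11 tested genes with NRF1 letters and -0.49 for the 32 without. For GABPA letters the medians were -0.49 (8 genes) and -0.43 (35), and for YY1 letters -0.41 (6) and -0.51 (37).

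All values below are log2 values made by RMA, which is known to compress fold changes, and a gene was called when its Benjamini-Hochberg adjusted p in limma, over all 12892 genes, was under 0.05. The median of an array was 6.36 to 6.455 for SKBR3 but 6.869 to 6.938 for MDA-468, so apart from the line markers in this paragraph only fold changes are compared across lines. The 2 SKBR3 siChe-1 arrays stood apart, with a correlation over all genes of 0.978 against 0.99 to 0.996 between replicates of the other groups, and a residual SD of 0.235 against 0.103 to 0.143. AATF read 8.69 and 8.68 in SKBR3 siControl and 8.09 and 7.97 in siChe-1, which left 63.3% of the control level (adjusted p 0.000778). In MDA-468 AATF read 8.86, 8.87 and 8.90 in siControl and 7.08, 7.13 and 7.29 in siChe-1, which left 30.5% (adjusted p 2.16e-08). AATF fell in both lines, and by 1.05 log2 units less in SKBR3 (adjusted p 0.000215). Some of the listed line markers separated the lines. ERBB2 had a control mean of 12.33 in SKBR3 and 8.29 in MDA-468, GRB7 10.3 and 7.89, EGFR 7.91 and 12.25, and KRT5 7.58 and 12.47. KRT8, KRT18 and KRT19 lay close together in both lines. EPCAM was higher in MDA-468 (11.59 and 12.47), and KRT14 was 7.52 and 8.08. In bulk RNA, fewer cells of a kind and less RNA per cell cannot be told apart.

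In MDA-468, most of the tested nuclear subunit transcripts of the respiratory chain and ATP synthase fell with siChe-1. Of the 51 subunit genes tested, 47 (92.2%) were called lower and 0 higher, while 27% of all genes tested were called lower and 16.4% higher. The median log2 fold change of the 51 was -0.44, with a range from -1.37 to -0.08, and that of all genes was -0.02. All 51 had a fold change below 0, as did 52.6% of all genes; after a further quantile normalization it was 50 of the 51, with SDHA at 0.01. On each MDA-468 siChe-1 array, all 51 genes lay below their siControl mean, with array medians of -0.455, -0.397 and -0.527, while the medians of all genes on those arrays were -0.011, -0.021 and -0.071. In 48 (94.1%) every siChe-1 array read below every siControl array, against 36% of all genes. In 18 genes (35.3%) the fall was called and exceeded 1.5-fold, against 9.35% of all genes. Of the 47 calls, 36 held in every other setting that tested the gene; of 19 settings, the fewest were kept by NDUFA10 (8), SDHD (10), ATP5F1B (10) and NDUFA12 (12).

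**Figure D1:**
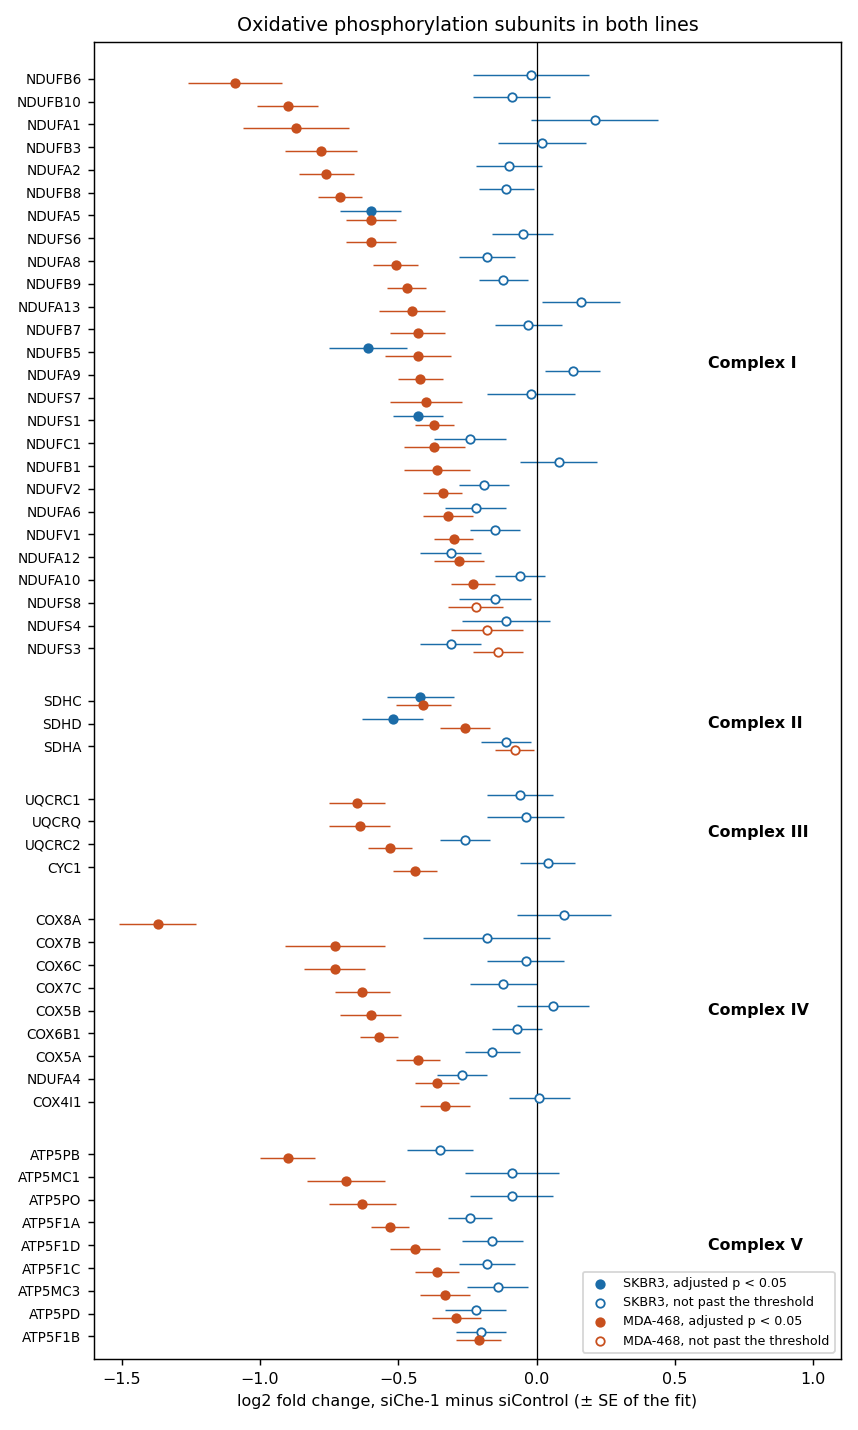
Log2 fold change, siChe-1 minus siControl, of the 51 tested subunit genes grouped by complex and ordered within each by the change in MDA-468 (orange; SKBR3 in blue); bars are the standard error of the fit and filled points have an adjusted p under 0.05. MDA-468 points run from -1.37 (COX8A) to -0.08 (SDHA), and SKBR3 points from -0.61 (NDUFB5) to 0.21 (NDUFA1).

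Complex I, the NADH dehydrogenase, had 26 tested genes, of which 23 fell in MDA-468 with a median of -0.43. Its nuclear-encoded core subunits lie in the matrix arm, the arm that holds the flavin and the iron-sulphur clusters. Of the 6 tested, 4 (NDUFV1, NDUFV2, NDUFS1 and NDUFS7) were called lower, with a core median of -0.32. Of the 20 accessory subunits, which surround the core and hold the arms together, 19 were called lower, with a median of -0.46. The largest fall was that of NDUFB6, a membrane-arm subunit, which read 8.82, 8.93 and 8.61 in siControl and 7.49, 7.75 and 7.83 in siChe-1. The groups did not overlap, and NDUFB6 was left at 46.8% of control (log2 fold change -1.09 ± 0.17, SE, n = 3 and 3; adjusted p 0.000372). NDUFB10, also of the membrane arm, read 9.07, 9.36 and 8.95 in siControl against 8.32, 8.27 and 8.08 in siChe-1, which left 53.4% (-0.90 ± 0.11, adjusted p 6.08e-05). NDUFA1, a small X-linked membrane subunit, read 10.75, 11.24 and 10.47 against 9.97, 10.06 and 9.83 (-0.87 ± 0.19, adjusted p 0.00279). Every siChe-1 array was below every control in these genes, although the NDUFA1 controls themselves ranged widely. NDUFA2, an accessory subunit of the matrix arm, read 9.19, 9.38 and 9.01 against 8.35, 8.47 and 8.49 (-0.76 ± 0.10, adjusted p 9.89e-05). NDUFB8, a membrane-arm subunit, read 10.03, 9.97 and 9.93 against 9.40, 9.29 and 9.13 and kept 61.3% of control (adjusted p 5.11e-05). The controls of NDUFA2 were spread more widely than those of NDUFB8 (SD 0.18 against 0.047), and neither gene's groups overlapped. NDUFB3 (-0.78) and NDUFS6 (-0.60) also fell by more than 1.5-fold, and the other called accessory genes, apart from NDUFA5 described with SKBR3, lay between -0.51 (NDUFA8) and -0.23 (NDUFA10).

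The 3 tested complex I genes that were not called in MDA-468 were NDUFS3, NDUFS4 and NDUFS8. NDUFS3, a core subunit near the quinone site, read 11.34, 11.15 and 11.31 in siControl and 11.17, 11.12 and 11.07 in siChe-1, and the groups overlapped (-0.14 ± 0.09, adjusted p 0.245). NDUFS4, an accessory subunit of the matrix arm known for its mutations in Leigh syndrome, read 6.70, 6.68 and 6.45 against 6.45, 6.47 and 6.36, close to the filter level of 6.03 (-0.18 ± 0.13, adjusted p 0.313). NDUFS8, a core iron-sulphur subunit, had a log2 fold change of -0.22 with every siChe-1 array below the controls, but its adjusted p was 0.11.

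Complex II, succinate dehydrogenase, feeds electrons from the citric acid cycle into the chain and pumps no protons. Its catalytic subunit SDHA, the flavoprotein, had the smallest change of the 51 genes in MDA-468, at 11.84, 11.76 and 11.74 in siControl and 11.72, 11.75 and 11.63 in siChe-1. The groups overlapped, and the log2 fold change was -0.08 with a 95% confidence interval from -0.25 to 0.09 (adjusted p 0.431). SDHC, a membrane anchor of the complex, read 10.94, 10.84 and 10.89 against 10.54, 10.54 and 10.37 (-0.41 ± 0.10, adjusted p 0.00528). SDHD, the other anchor, read 11.61, 11.70 and 11.61 against 11.43, 11.40 and 11.32 (-0.26 ± 0.09, adjusted p 0.0352). Neither anchor had overlapping groups, but the SDHD call held in 10 of 19 other settings and was lost without any 1 of the 6 MDA-468 arrays (adjusted p up to 0.122). The median of the 3 genes was -0.26.

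Complex III, the cytochrome bc1 complex, and complex IV, cytochrome c oxidase, had every tested gene called lower in MDA-468: 4 of 4 with a median of -0.59, and 9 of 9 with a median of -0.60. In complex III, UQCRC1, a core protein facing the matrix, fell most, from 10.01, 10.00 and 9.93 to 9.51, 9.23 and 9.24 (-0.65 ± 0.10, adjusted p 0.000227). CYC1, cytochrome c1, which hands electrons to cytochrome c, fell least, from 10.32, 10.30 and 10.26 to 9.95, 9.90 and 9.70 (-0.44 ± 0.08, adjusted p 0.000957). The 3 CYC1 controls lay within a narrow band that no siChe-1 array reached. UQCRQ (-0.64) and UQCRC2 (-0.53) lay between them.

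COX8A, among the smallest membrane subunits of cytochrome c oxidase, had the largest fall of the 51 genes. In MDA-468 it read 11.05, 11.41 and 10.84 in siControl and 9.74, 9.81 and 9.63 in siChe-1. The lowest control was above the highest siChe-1 array by more than the spread of either group, and 38.7% of the control level was left (-1.37 ± 0.14, adjusted p 1.38e-05). COX4I1, the widely expressed form of the largest nuclear subunit, fell least in complex IV, from 9.46, 9.56 and 9.32 to 9.11, 9.13 and 9.09 (-0.33 ± 0.09, adjusted p 0.0116). COX6B1, on the side of the intermembrane space, read 11.01, 11.15 and 10.99 against 10.53, 10.47 and 10.45 (-0.57 ± 0.07, adjusted p 9.6e-05). The small membrane subunits COX6C (-0.73), COX7B (-0.73) and COX7C (-0.63) and the matrix-side COX5B (-0.60) all fell by more than 1.5-fold, and COX5A fell by 0.43. NDUFA4, first described with complex I and now placed in complex IV, was counted here and fell by 0.36; counted with complex I it would make 24 of 27 genes there.

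Complex V had 9 of 9 tested genes called lower in MDA-468, with a median of -0.44. The 4 subunits of the catalytic F1 head had a median of -0.40 and the 5 of the membrane part and stalks -0.63. ATP5PB, a subunit of the peripheral stalk that holds the head in place, read 8.76, 8.62 and 8.38 in siControl and 7.63, 7.69 and 7.73 in siChe-1. Its siChe-1 arrays lay close together and below all controls, at 53.5% of control (-0.90 ± 0.10, adjusted p 2.35e-05). ATP5F1B, the catalytic beta subunit, fell least, from 12.55, 12.44 and 12.55 to 12.31, 12.32 and 12.27 (-0.21 ± 0.08, adjusted p 0.0383). That call held in 10 of 19 other settings and was lost without any 1 of 5 of the 6 MDA-468 arrays (adjusted p up to 0.132). ATP5PO, another stalk subunit, fell by 0.63, and the head subunits ATP5F1A, ATP5F1D and ATP5F1C by 0.53, 0.44 and 0.36.

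The rotating ring of the synthase is made of the c subunit, whose identical mature protein is encoded by ATP5MC1, ATP5MC2 and ATP5MC3. ATP5MC1 read 9.58, 9.84 and 9.36 in MDA-468 siControl and 8.99, 9.00 and 8.70 in siChe-1 (-0.69 ± 0.14, adjusted p 0.00223). ATP5MC3 read 6.86, 6.90 and 6.88 against 6.63, 6.58 and 6.42 (-0.33 ± 0.09, adjusted p 0.0113). ATP5MC2, which is not among the 55 genes, read 9.26, 9.37 and 9.32 against 8.70, 8.65 and 8.48 (-0.70 ± 0.11, adjusted p 0.00044). All 3 transcripts fell in MDA-468 without overlap between groups. In SKBR3 their log2 fold changes were -0.09 (arrays 9.22 and 9.36 against 9.00 and 9.40), -0.14 (6.72 and 6.89 against 6.55 and 6.78) and -0.02 (9.35 and 9.22 against 9.03 and 9.49), in the order ATP5MC1, ATP5MC3, ATP5MC2. The SKBR3 groups overlapped in all 3 (adjusted p 0.767, 0.415 and 0.927).

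**Figure D2:**
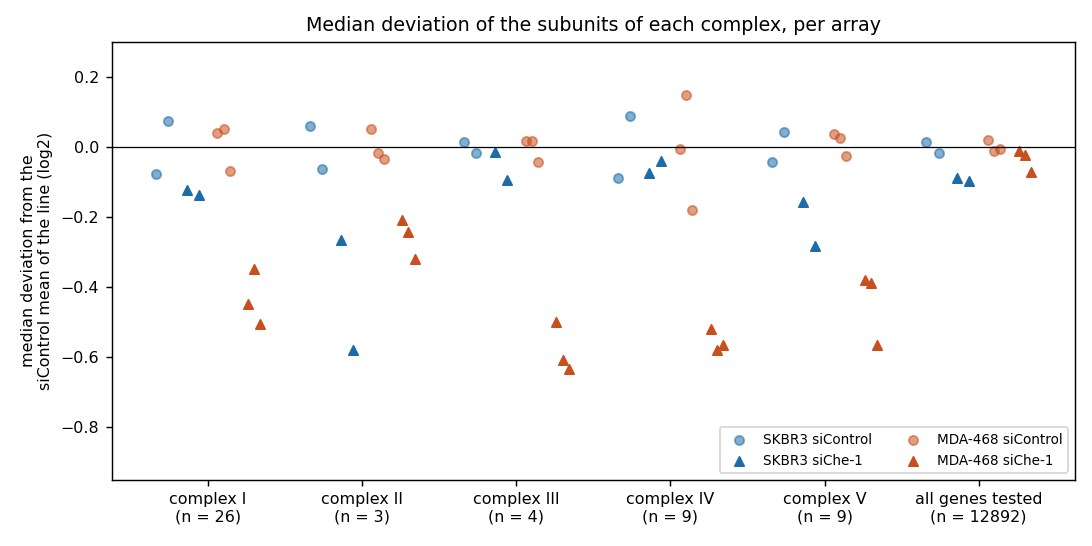
Median over the subunits of each complex, and over all 12892 genes tested, of the deviation from the siControl mean of the same line (log2; circles siControl, triangles siChe-1, 1 point per array, n the number of genes). The 3 MDA-468 siChe-1 arrays lie below the controls in every complex, between -0.505 and -0.349 for complex I, while for all genes they lie between -0.071 and -0.011.

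In SKBR3 few subunit transcripts were called. Only 5 of the 51 genes (9.8%) were called lower, below the 17.1% of all genes, and 0 were called higher against 6.64% of all genes; at an unadjusted p under 0.05 in limma, 11 were lower and 0 higher. The median log2 fold change was -0.12, near the -0.08 of all genes, with a range from -0.61 to 0.21. A fold change below 0 was found in 42 genes (82.4%), where 61.6% of all genes had one. After a further quantile normalization it was found in 31 genes. In 25 (49%) both siChe-1 arrays read below both controls, against 37.8% of all genes. On the 2 siChe-1 arrays the members' medians were -0.12 and -0.153, beside -0.089 and -0.095 for all genes. The SKBR3 count depended on the fit: it was 0 with SKBR3 fitted alone, on 2 and 2 arrays. It was 3 with arrays of the same number fitted as a block (the replicate block). With that block the genes called in SKBR3 over the whole table went from 3057 to 1249, and they were not counted with SKBR3 fitted alone. Without 1 SKBR3 array, which leaves 1 in a group, the members' median was -0.17 to -0.08, beside -0.11 to -0.06 for all genes. The smaller fall of AATF in SKBR3, given above, stands beside these counts, and its part in them was not tested.

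The 5 genes called lower in SKBR3 were the complex I genes NDUFA5, NDUFB5 and NDUFS1 and the membrane anchors of complex II, SDHC and SDHD. NDUFA5, an accessory subunit of the matrix arm, read 10.84 and 11.01 in SKBR3 siControl and 10.42 and 10.23 in siChe-1 (-0.60 ± 0.11, n = 2 and 2; adjusted p 0.00348). In MDA-468 it read 10.18, 10.11 and 10.05 against 9.39, 9.54 and 9.61, again a change of -0.60 (adjusted p 0.000275). The levels of NDUFA5 were left at 65.9% of control in either line. NDUFB5, of the membrane arm, had the largest fall in SKBR3, from 11.15 and 11.31 to 10.86 and 10.37 (-0.61 ± 0.14, adjusted p 0.0123). Its 2 siChe-1 arrays were far from each other, yet both lay below the controls. The same gene fell by 0.43 in MDA-468, from 10.72, 10.59 and 10.65 to 10.11, 10.25 and 10.29 (adjusted p 0.0114).

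NDUFS1, the largest core subunit and a carrier of iron-sulphur clusters, fell from 10.82 and 10.77 to 10.42 and 10.31 in SKBR3 (-0.43 ± 0.09, adjusted p 0.0072). In MDA-468 it went from 10.58, 10.47 and 10.45 to 10.12, 10.18 and 10.09 (-0.37 ± 0.07, adjusted p 0.00173). SDHC fell from 10.69 and 10.53 to 10.35 and 10.03 in SKBR3 (-0.42 ± 0.12, adjusted p 0.0261), and SDHD from 10.83 and 10.91 to 10.50 and 10.19 (-0.52 ± 0.11, adjusted p 0.00629). Over the 19 other settings the SKBR3 calls of NDUFB5 and SDHC were kept in 15 and 14, and those of the others in 17 or 18. In all 5 genes both siChe-1 arrays of SKBR3 were below both controls, and the second siChe-1 array was the lower of the pair. All 5 were also called lower in MDA-468, so 9.8% of the subunit genes were called lower in both lines, against 9.32% of all genes. SDHA, the catalytic partner of the anchors, was not called in SKBR3 either, at 11.64 and 11.52 against 11.51 and 11.43 (-0.11, adjusted p 0.43).

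The 3 highest SKBR3 fold changes, all uncalled, were those of NDUFA1, NDUFA13 and NDUFA9. NDUFA1 read 10.62 and 10.94 in siControl and 10.76 and 11.22 in siChe-1 (0.21, 95% confidence interval -0.29 to 0.71, adjusted p 0.56). NDUFA13, also known as GRIM-19, read 9.02 and 8.97 against 8.99 and 9.33 (0.16, -0.15 to 0.48, adjusted p 0.452). NDUFA9, a subunit near the quinone site, read 10.56 and 10.55 against 10.78 and 10.59 (0.13, -0.09 to 0.36, adjusted p 0.399). In NDUFA1 and NDUFA13 the groups overlapped, and the NDUFA9 siChe-1 arrays were above both controls by little. All 3 fell in MDA-468: NDUFA13 read 9.67, 9.79 and 9.41 in siControl against 9.17, 9.27 and 9.10, and NDUFA9 10.20, 10.23 and 10.11 against 9.85, 9.78 and 9.65. NDUFS3, uncalled in both lines, read 10.82 and 10.73 against 10.62 and 10.32 in SKBR3 (-0.31, adjusted p 0.0751), and NDUFS4 6.62 and 7.12 against 6.93 and 6.58 (-0.11, adjusted p 0.677).

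**Figure D3:**
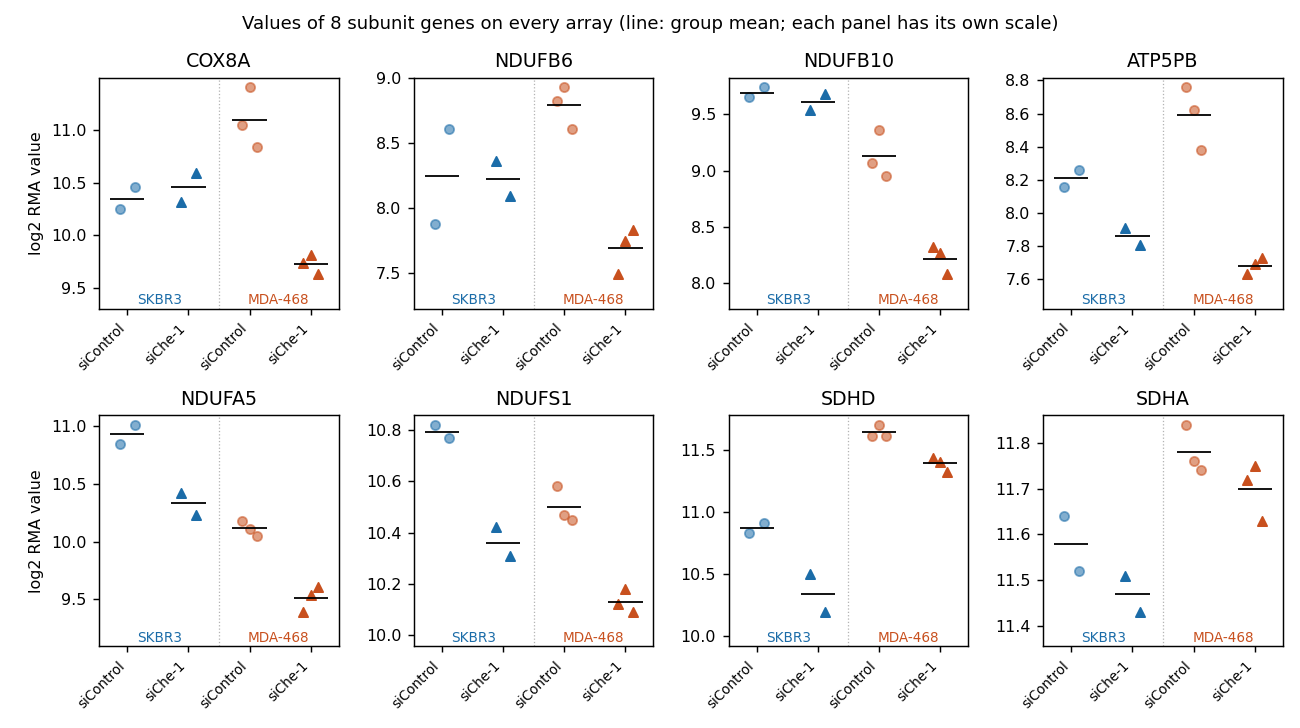
Log2 RMA value of 8 subunit genes on every array, by group, with the group mean as a line and a scale of its own in each panel. COX8A, NDUFB6, NDUFB10 and ATP5PB are separated between groups in MDA-468, and of these 4 ATP5PB alone is also separated in SKBR3; NDUFA5, NDUFS1 and SDHD are separated in both lines, and SDHA overlaps in MDA-468.

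The change in SKBR3 minus the change in MDA-468 was tested directly as a difference of differences in limma. In 18 of the 51 genes (35.3%) it was called above 0, that is, the MDA-468 change was the lower, against 8.49% of all genes; in 0 it was called below 0, against 10.7% of all genes (median difference 0.34). At an unadjusted p under 0.05, 27 were above 0 and 0 below. The 18 were 9 of the 20 tested complex I accessory genes, 3 of 4 in complex III, 5 of 9 in complex IV and 1 of 9 in complex V, and none of the complex I core or complex II genes. COX8A differed most, by 1.47 (95% confidence interval 0.99 to 1.95, adjusted p 0.001); its SKBR3 arrays read 10.25 and 10.46 in siControl and 10.32 and 10.59 in siChe-1. NDUFB10 differed by 0.82 (adjusted p 0.00839), with SKBR3 arrays at 9.65 and 9.74 against 9.54 and 9.68. NDUFB8 differed by 0.59 (adjusted p 0.0108), with SKBR3 arrays at 9.91 and 9.80 against 9.78 and 9.70. For these genes the SKBR3 groups overlapped or nearly touched, unlike those of MDA-468.

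COX6B1 differed by 0.50 (adjusted p 0.0132), from SKBR3 arrays at 10.60 and 10.57 against 10.49 and 10.54. NDUFA2 differed by 0.66 (adjusted p 0.0141), from 9.51 and 9.66 against 9.44 and 9.54. NDUFA1 and NDUFB6 had large differences with wide intervals, 1.08 (0.43 to 1.72) and 1.07 (0.47 to 1.67), and the SKBR3 controls of NDUFB6 were far apart at 7.88 and 8.61, with siChe-1 arrays at 8.36 and 8.09. The SKBR3 arrays of UQCRC1 (9.93 and 9.90 against 9.97 and 9.73), CYC1 (10.84 and 10.79 against 10.87 and 10.85) and COX4I1 (8.77 and 8.86 against 8.69 and 8.96) showed changes of -0.06, 0.04 and 0.01. The difference was called for UQCRC1 and CYC1 (adjusted p 0.0205 and 0.022) and not for COX4I1 (0.12). ATP5PB, the complex V gene among the 18, read 8.16 and 8.26 against 7.91 and 7.81 in SKBR3, a change of -0.35 that just missed the call (adjusted p 0.0539), and its difference was 0.55 (adjusted p 0.0296). ATP5F1B had a log2 fold change of -0.20 in SKBR3 (12.96 and 12.90 against 12.81 and 12.65; adjusted p 0.141), and a difference from MDA-468 of 0.01 with an interval from -0.25 to 0.28.

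For the 5 genes called in both lines the difference was not called, with intervals that leave room for moderate differences: -0.32 to 0.32 for NDUFA5, -0.31 to 0.20 for NDUFS1, -0.35 to 0.32 for SDHC, -0.59 to 0.23 for NDUFB5 and -0.58 to 0.04 for SDHD. The count of 18 fell to 11 and 10 without the first and the second MDA-468 control array, and to 6 with the replicate block. With that block the genes called for the difference over the whole table went from 2471 to 1104, and they were not counted without those arrays. The count of 18 also fell without either SKBR3 control array, which leaves 1 in that group. COX8A and NDUFB10 were called in each of the 18 other settings that gave a difference, and COX7C (7), UQCRQ (8), NDUFA13 (8) and ATP5PB (10) in the fewest. Over the 51 genes, which were read from the same arrays, the MDA-468 fold change had a Pearson r of -0.30 (Spearman rho -0.36) with the SKBR3 fold change and 0.35 (0.25) with the log10 of the gene's span.

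Some members have limits of measurement. UQCRB, a complex III subunit, was below the filter and not tested; it read 5.07 and 4.95 against 4.57 and 4.24 in SKBR3 and 6.53, 6.64 and 6.35 against 5.88, 5.95 and 6.09 in MDA-468, lower on every siChe-1 array of either line. NDUFC2 was read only by a probe set annotated to several genes, and SDHB, UQCRFS1 and the 13 mitochondrially encoded subunits were not analysed here. RefSeq lists at least 1 pseudogene named after the parent for 32 of the 52 measured genes, and a probe set may read such copies. COX6C has the most, 18, followed by NDUFA5 with 12. ATP5PB, ATP5MC1 and COX5B have 8 each, and SDHD, COX6B1 and ATP5F1A 7. NDUFA4, NDUFB3 and SDHC have 5, and SDHA, COX7B, COX7C and ATP5PD 4. The second probe sets of SDHC and SDHD, which were looked at without a test, gave differences of -0.61 and -0.34 in SKBR3 and of -0.72 and -0.43 in MDA-468, so both sets of each gene were lower in either line. For NDUFV2 the 2 sets gave -0.19 and -0.19 in SKBR3 and -0.34 and -0.38 in MDA-468. The second set of NDUFS4 lay at a mean of 4.61, below the filter.

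Other genes of the pathway were counted from lists in the same fit, to be read against the 27% of all genes lower and 16.4% higher in MDA-468 and the 17.1% and 6.64% in SKBR3. Of 20 further nuclear subunits tested, 18 (90.0%) fell in MDA-468 (median -0.58) and 4 (20.0%) in SKBR3 (median -0.11), and 0 rose. ATP5MJ, a small membrane subunit of complex V, had the largest fall in MDA-468 (log2 fold change -1.23, adjusted p 8.74e-07) and also fell in SKBR3 (-0.39, adjusted p 0.0238). The other 3 that fell in SKBR3 were NDUFV3 (-0.41, adjusted p 0.0118), UQCR10 (-0.40, 0.0197) and ATP5PF (-0.34, 0.0246). Of 3 tested tissue-restricted isoforms, 0 were called in either line by limma, and 0 had an unadjusted p under 0.05. Assembly factors, which build the complexes but are not part of them, had 26 of 39 (66.7%) lower and 1 higher in MDA-468 (median -0.33), and 14 (35.9%) lower and 1 higher in SKBR3 (median -0.27). TIMMDC1, a complex I assembly factor, fell by 0.69 in SKBR3 and 0.93 in MDA-468, and SDHAF4, for complex II, fell by 1.06 in MDA-468 and read -0.30 in SKBR3 (adjusted p 0.157). SCO2, a copper chaperone of cytochrome c oxidase and a known p53 target, rose in both lines, by 0.85 in SKBR3 (adjusted p 0.000492) and 0.30 in MDA-468 (adjusted p 0.0238).

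Genes of coenzyme Q synthesis, cytochrome c and electron carriers were listed together with phosphate and adenine nucleotide carriers, VDAC1 and ATP5IF1. Of the 19 tested genes of this list, 16 (84.2%) were lower in MDA-468 (median -0.41) and 9 (47.4%) in SKBR3 (median -0.30). PDSS2, of coenzyme Q synthesis, fell by 0.95 in MDA-468 and read -0.41 in SKBR3 (adjusted p 0.112), and ETFDH, which passes electrons from fatty acid oxidation to coenzyme Q, fell by 0.84 and 0.62. Citric acid cycle genes had 9 of 16 (56.2%) lower in MDA-468 (median -0.31) and 6 (37.5%) in SKBR3 (median -0.29), with DLAT, of pyruvate dehydrogenase, lower by 0.93 and 0.46. SUCLA2, a subunit of succinyl-CoA ligase, fell most in SKBR3, by 0.52, and read -0.22 in MDA-468 (adjusted p 0.148).

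Regulators of the pathway had 3 lower (18.8%) and 1 higher (6.25%) of 16 in MDA-468 (median -0.05). In SKBR3 they had 4 lower (25%) and 1 higher (6.25%), with a median of -0.13. Among all genes, 27% were lower and 16.4% higher in MDA-468, and 17.1% and 6.64% in SKBR3. GABPA fell in both lines, by 0.70 in SKBR3 (adjusted p 0.00232) and 1.07 in MDA-468 (adjusted p 6.75e-06), and PPRC1, a coactivator of the PGC-1 family, rose in both, by 0.30 and 0.24. TFB2M, a factor of mitochondrial transcription, fell by 0.67 in MDA-468 (adjusted p 3.86e-05) and read -0.24 in SKBR3 (adjusted p 0.0916), and the mitochondrial helicase gene TWNK fell by 0.19 in MDA-468. In SKBR3 the genes that fell with GABPA were TFAM, which packs mitochondrial DNA (-0.64, adjusted p 0.0112), TFB1M, which modifies mitochondrial ribosomal RNA (-0.73, 0.00375), and LRPPRC, which keeps mitochondrial mRNA stable (-0.47, 0.00789). In MDA-468 these 3 read -0.16, -0.05 and 0.06 (adjusted p 0.319, 0.777 and 0.568), and the difference was called for TFB1M (-0.68, adjusted p 0.0211) and LRPPRC (-0.53, 0.0161) and not for TFAM (-0.48, 0.109).

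**Figure D4:**
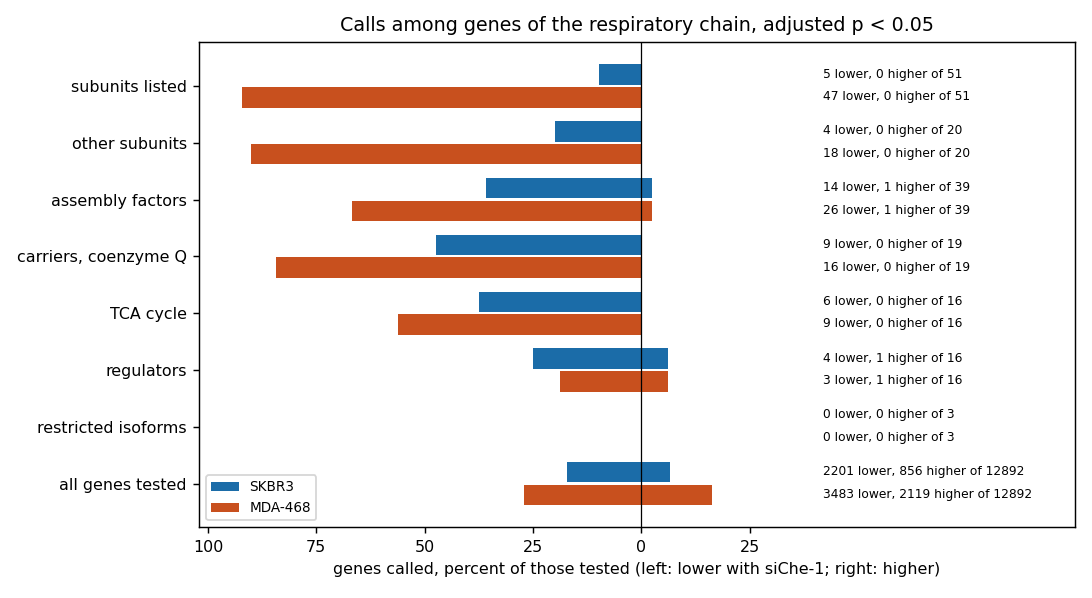
Share of the tested genes of each list called lower (left) or higher (right) with siChe-1, in percent, at an adjusted p under 0.05 (SKBR3 blue, MDA-468 orange), with the counts at the right. In MDA-468 the 51 subunits and the 20 other subunits have 47 and 18 genes lower, against 3483 of all 12892 genes; in SKBR3 they have 5 and 4, against 2201.

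Markers of other cells were read beside these counts. Of 5 blood cell markers with a probe set (the leukocyte genes PTPRC, CD3E, CD14 and CD68 and the red cell gene HBB), 2 were tested. These were CD68 and CD14, which rose in both lines, by 1.49 and 0.53 in SKBR3 and 0.46 and 0.64 in MDA-468. The mean log2 value of the 5 ran from 5.04 to 5.16 in SKBR3 siControl and from 5.47 to 5.67 in siChe-1, and from 6.12 to 6.19 and 6.28 to 6.33 in MDA-468. The defining leukocyte gene PTPRC lay below the filter in every group, at means of 3.25 and 3.29 in SKBR3 and 4.03 and 3.69 in MDA-468. Of 8 fibroblast and endothelial markers 3 were tested, and COL1A1 rose in MDA-468 by 0.34; the mean of the 8 ran from 5.04 to 5.22 and 4.99 to 5.24 in SKBR3 and from 5.3 to 5.4 and 5.44 to 5.61 in MDA-468. DCN, LUM, PECAM1, VWF and CDH5 were below the filter. Among 9 markers of the lines, 4 (44.4%) rose in MDA-468: KRT14 by 1.95, KRT5 by 0.82, EGFR by 0.72 and KRT18 by 0.21. In that line 2 (22.2%) fell, ERBB2 and KRT19, and in SKBR3 1 (11.1%) rose, EGFR. Of all genes, 16.4% were called higher and 27% lower in MDA-468, and 6.64% higher in SKBR3. The part of these shifts in the subunit results was not tested.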

How the data were processed

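Total RNA of 10 samples was hybridised to Affymetrix arrays. The deposited values are log2 intensities. Per the submitters' processing notes, the authors used RMA and Affymetrix Expression Console; tool versions and the set of arrays normalized jointly are not given in the sources read. Of 33297 probe sets, 19460 had 1 gene in GEO's platform annotation, 1754 several and 12083 none. Of the 19460 probe sets, 19429 were matched to RefSeq by gene identifier, and the rest kept their annotated symbol. Together they gave 18417 genes. Genes whose mean was under the 30th percentile (6.03) were left out, so a gene can pass through its level in 1 group. limma 3.58.1 (R 4.3.3), tested on simulated data, was fitted to all 10 arrays with 4 group means (6 residual and 4.918 prior degrees of freedom), without a replicate block. No 2 arrays held identical values. The number of arrays limits the precision.

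The subunits and all lists were chosen with earlier results of these data known. Values on every array are given for AATF and, among the subunits, the 3 lowest and highest fold changes in each line, the extremes of each complex in MDA-468, all called in SKBR3 or called higher, the 5 smallest p for the difference and the c subunit genes; in other lists, the extremes among called genes in each line and those behind counts of 5 or fewer are named. NDUFS8, other fold changes and the marker genes were named after their values were seen. Alternatives were other filters, normalizations and fits, the replicate block and each array left out; second probe sets and the crossed SKBR3 pairing were added after seeing the data.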

Additional observations from a re-analysis of the deposited data

Results flagged for a closer look

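The log2 change in SKBR3 minus that in MDA-468 was called in limma (adjusted p under 0.05) for AATF, at 1.05, and for 18 subunit genes. In complex I these were NDUFA1 (1.08), NDUFB6 (1.07), NDUFB10 (0.82), NDUFB3 (0.81), NDUFA2 (0.66), NDUFA13 (0.61), NDUFB8 (0.59), NDUFA9 (0.55) and NDUFS6 (0.55). In complexes III and IV they were COX8A (1.47), COX6C (0.69), COX5B (0.66), UQCRQ (0.60), UQCRC1 (0.59), COX7C (0.51), COX6B1 (0.50) and CYC1 (0.48), and in complex V ATP5PB (0.55). Of the other pathway genes named, ATP5MJ (0.84), SDHAF4 (0.76), ATP5MC2 (0.68), SCO2 (0.55), DLAT (0.47) and TFB2M (0.43) differed in the same direction, and TFB1M (-0.68) and LRPPRC (-0.53) in the opposite one. Among the marker genes named, the difference was also called for CD68 (1.02), KRT14 (-1.63), KRT5 (-0.54) and EGFR (-0.45). Of the 18 subunit genes, COX8A and NDUFB10 were called in all 18 other settings that gave a difference, while COX7C was called in 7, UQCRQ and NDUFA13 in 8 and ATP5PB in 10.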

How the results depend on the processing

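Results were recomputed under 19 settings. The count of subunit genes lower in MDA-468 stayed between 39 and 47 over the 10 fits without 1 array and at 39 with the replicate block, and 36 of the 47 genes were called in every setting; 0 were called higher in either line in any limma setting. In SKBR3 the count of 5 was 10 with a filter at the 50th percentile, 0 with each line fitted alone, 3 with the replicate block, 12 with a trended robust prior and 2 to 14 without 1 array, and none of the 5 genes was called in every setting. The difference between lines was called above 0 in 6 genes with the replicate block and in 6 to 20 without 1 array, and below 0 in 0 to 2. The median in SKBR3 was -0.07 after quantile normalization of all arrays together and -0.17 to -0.08 without 1 array; that in MDA-468 was -0.48 to -0.38. Causes were not tested.

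Same-numbered arrays did not deviate together (r -0.556 in SKBR3, and -0.491, 0.002 and -0.276 in MDA-468). In MDA-468, 0 of 3 controls correlated best with the siChe-1 array of their own number. In SKBR3 the deviations within a group mirror each other, so arrays with crossed numbers did deviate together. With so few arrays per group, these values cannot decide whether arrays were paired, by these numbers or by others. With the block, 1249, 4412 and 1104 genes were called in SKBR3, MDA-468 and the difference, against 3057, 5602 and 2471 without it; with the SKBR3 numbers crossed, 3267, 5804 and 2583.

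Uncalled values changed sign. Quantile normalization gave, in SKBR3, ATP5MC1 0.01, ATP5MC2 0.07, NDUFA2 0.01, NDUFB10 0.01, NDUFB6 0.10 and UQCRC1 0.02, in MDA-468 SDHA 0.01, and as differences ATP5F1B -0.02, NDUFS1 0.01 and SDHC 0.05. Centring arrays on their median gave differences of 0.00 for ATP5F1B and -0.01 for NDUFA5, and averaging probe sets 0.05 for SDHC. Without 1 array the SKBR3 ranges were ATP5MC1 -0.29 to 0.11, ATP5MC2 -0.25 to 0.21, COX4I1 -0.12 to 0.15, COX8A -0.03 to 0.23, NDUFA1 -0.02 to 0.44, NDUFA13 -0.01 to 0.34, NDUFA2 -0.17 to -0.03, NDUFB10 -0.16 to -0.02, NDUFB6 -0.39 to 0.34, NDUFS4 -0.36 to 0.14 and UQCRC1 -0.18 to 0.06. SDHA in MDA-468 ran from -0.11 to -0.04. The differences ran from -0.07 to 0.09 for ATP5F1B, -0.10 to 0.10 for NDUFA5, -0.42 to 0.07 for NDUFB5, -0.11 to 0.00 for NDUFS1, -0.18 to 0.32 for NDUFS4, -0.09 to 0.03 for SDHA and -0.17 to 0.14 for SDHC. Of 77 called values of named genes, 36 were past the threshold in every setting.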
